A study of Osmia excavata with 6 samples.

Results

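The cuticle tanning and yellow family genes described here are 10 assembled genes of the solitary mason bee Osmia excavata. They are those with the highest mean TPM among 29 rows whose protein description names a bee genus and a yellow or major royal jelly protein, a laccase, a phenoloxidase, a dopamine N-acetyltransferase, an aromatic-L-amino-acid decarboxylase or a tyrosine 3-monooxygenase, in a table of 37061 genes. TPM is a transcript level scaled for transcript length and library size, so it can be compared between genes. The members were chosen by their mean TPM over all 6 libraries, so their levels are a description. Poly(A) RNA was sequenced from 3 control samples and 3 samples treated by water immersion, whose titles call them a decocooning group, so the effects of wetting and of leaving the cocoon cannot be told apart. Under tissue the labels name only the species, and they state no body part, sex, age, strain or time after immersion, nor whether a sample is 1 animal or a pool. Nothing says that the samples came from separate animals, so p-values measure only the spread between these samples.

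Insect cuticle hardens and darkens through a pathway that starts from the amino acid tyrosine. Tyrosine hydroxylase makes dopa, a decarboxylase makes dopamine, and dopamine is either acetylated or joined to beta-alanine before laccase oxidises the products to quinones that cross-link cuticle proteins. Dopa and dopamine also feed black melanin, a branch in which yellow proteins take part, and phenoloxidase makes melanin in the blood during wounding and defence. The major royal jelly proteins of honeybees arose from the yellow family. Dopamine is also a neurotransmitter, so the early enzymes of the pathway act in neurons as well as in the epidermis.

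Estimated counts came to between 16765886 and 19953734 per library. Control 1 and all immersion libraries held reads of genes matching the worm Caenorhabditis, at 3464 CPM (counts scaled to library size) for control 1 and from 14053 to 14978 CPM for immersion, against 0.908 and 0.208 CPM for controls 2 and 3. Genes matching 6 mammal genera split the libraries the same way, with 4791 to 14517 CPM in those 4 libraries and 85.7 and 193 CPM in the other two. No label names a batch. A fit with a term for worm reads above 100 CPM sets immersion against control 1 alone. Its values are called within the batch below, as a name for that split only. Control 1 had fewer worm reads than the immersion libraries and the most mammal reads (14517 CPM), so whether it shared their handling is not known. This fit shares its libraries with the fit of all 6 and is no independent test. In bulk RNA, fewer cells of a type and less RNA per cell cannot be told apart.

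In the quasi-likelihood test of edgeR no member had an adjusted p under 0.05 (0 of 9 tested), and neither did any of the 9250 Hymenoptera-matched genes in the fit (0.00%). An unadjusted p under 0.05 was reached by 3 of the 9, 1 higher and 2 lower after immersion. Of all 9250 genes 34.8% reached that p (14.2% higher, 20.6% lower), so the members' share was close to the background. By TPM the groups did not overlap in 4 of the 9 members, 1 with immersion above and 3 with immersion below, against 44.6% of all genes (24.9% above, 19.8% below). The median log2 fold change (immersion minus control) was -0.03 over the 9 members and 0.02 over all 9250 genes. The tenth member did not pass the filter on low counts, because it was high in 1 library alone. DESeq2 called 2 members (23.0% of all genes it adjusted), limma-voom with library weights 5 (68.9%), and edgeR without control 1 called 3 (52.3%), so each of these counts stood in a fit that also called many other genes.

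The 10 members had mean levels from 24.9 to 239 TPM, and their levels summed to between 817 and 1256 TPM in the controls and between 822 and 1018 TPM after immersion. By domain they fell into few families: 5 carried the MRJP domain shared by yellow and royal jelly proteins, 3 a copper oxidase domain and the other two an acetyltransferase and a hemocyanin domain. A Swiss-Prot match to yellow of a fly was given to 3 of the first kind, and 4 carried the ontology term of cuticle pigmentation. All 5 with the MRJP domain were assigned by KEGG orthology to dopachrome tautomerase, an enzyme activity of melanin synthesis, and with phenoloxidase 2 they made 6 members in the tyrosine metabolism pathway. The member ranked 9 had a mean of 26.7 TPM and the member ranked 10 had 24.9 TPM. Just outside were a major royal jelly protein 1 row (TRINITY_DN15765_c0_g1) and a yellow-like row (TRINITY_DN27007_c0_g1), at means of 20.02 and 16.3 TPM.

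**Figure D1:**
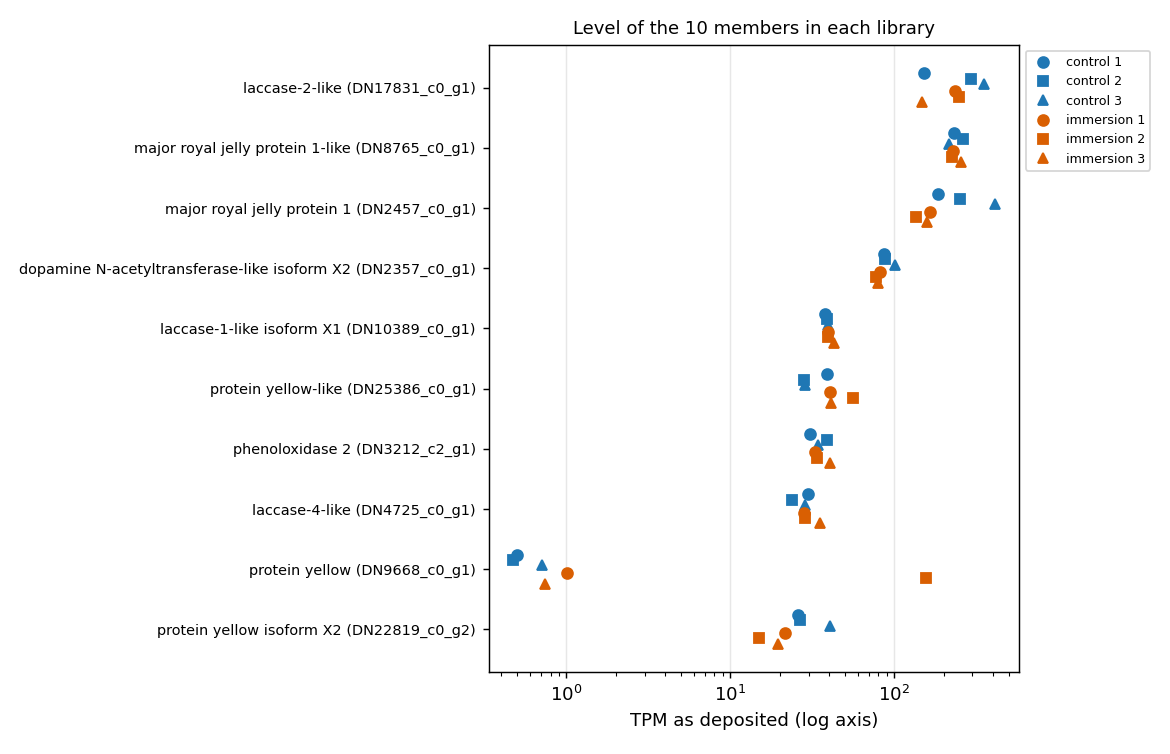
TPM of the 10 members in each library, on a log axis, with controls in blue, immersion libraries in orange and the replicate number as the marker shape. Major royal jelly protein 1 (DN2457) and yellow isoform X2 (DN22819) lie lower in all 3 immersion libraries, and yellow DN9668 is near 1 TPM or below in every library except immersion 2, at 157 TPM.

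The first enzyme of the pathway had a higher mean level than any member, but its row matched an ant, Trachymyrmex, and so lies outside the rule. Tyrosine 3-monooxygenase (ple, TRINITY_DN5041_c0_g1), which turns tyrosine into dopa, stood at 274, 391 and 846 TPM in controls 1, 2 and 3 and at 216, 195 and 213 TPM in immersion libraries 1, 2 and 3. All immersion libraries lay below all controls, and control 3 was far above the other controls. The difference was -1.22 ± 0.38 (SE) on the log2 scale (edgeR adjusted p = 0.102). Within the batch the log2 fold change was -0.42, and without control 3 it was -0.63.

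Dopa is then decarboxylated to dopamine. The main decarboxylase row (Ddc, TRINITY_DN13190_c0_g2), ranked 14 of the 29 and so not a member, had 11.1, 14.1 and 15.0 TPM in the controls and 10.6, 8.68 and 8.57 TPM after immersion. Again the groups did not overlap, with a log2 fold change of -0.47 ± 0.17 (SE) and an edgeR adjusted p of 0.118. Within the batch its log2 fold change was -0.26. Of the 4 decarboxylase rows 3 could be tested, and the other two tested rows had fold changes of -0.22 and 0.25 on the log2 scale.

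Neurons use both early enzymes too. The summed level of 18 rows, taken as nervous system markers by word pattern, was 348 to 407 TPM in the controls and 432 to 450 TPM after immersion. That sum was led by a synaptobrevin row (symbol VAMP3) with a mean of 264 TPM, itself higher in every immersion library. The patterns also took in a CUGBP Elav-like row (TRINITY_DN556_c0_g1) and synaptobrevin homolog YKT6, with means of 40.7 and 30.0 TPM. Such rows are not specific to neurons, so the summed level is no measure of nervous tissue alone. Of the 14 tested rows, however, 10 had a negative log2 fold change, with a median of -0.62. That median was -0.24 within the batch and -0.14 with transcript length trends removed. The vesicular amine transporter, which loads dopamine into synaptic vesicles, had its main row (SLC18A2, TRINITY_DN5114_c0_g1) at 8.31, 9.38 and 11.6 TPM in the controls and 7.14, 5.99 and 6.62 TPM after immersion. Of its 3 weaker rows, 1 was at 0 in every library and 1 in all but immersion 1. The part of nervous tissue in the values of tyrosine 3-monooxygenase and Ddc was not tested.

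Dopamine is next acetylated. Dopamine N-acetyltransferase (Dat, TRINITY_DN2357_c0_g1), which makes N-acetyldopamine, a precursor of colourless sclerotin, had 86.4, 87.9 and 101 TPM in the controls and 82.0, 77.8 and 80.0 TPM after immersion. Every immersion library was below every control, by a small margin. On the log2 scale the difference was -0.21 ± 0.14 (SE; edgeR adjusted p = 0.279), and -0.10 within the batch. Removal of the length trend turned its sign, to 0.03. The 2 weaker rows of the same description averaged 7.06 and 5.01 TPM and had log2 fold changes of 0.44 and 0.14.

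Laccases oxidise the catechols in the last step. The laccase-2-like gene (TRINITY_DN17831_c0_g1), whose counterpart in beetles is required for cuticle tanning and whose ontology terms include chitin-based cuticle development, was the most abundant member. It stood at 152, 296 and 355 TPM in controls 1, 2 and 3 and at 234, 249 and 148 TPM in immersion libraries 1, 2 and 3. The low libraries were control 1 and immersion 3, so the spread within each group was larger than the difference between them. Its log2 fold change was -0.32 ± 0.36 (SE; edgeR adjusted p = 0.498), and within the batch it was 0.50, of the opposite sign. The row held 97.9% to 99.5% of the counts of its 6-row assembly component in each library, so the short fragments beside it, among them partial laccase-4 and laccase-1 rows that are counted apart, carry little of its signal.

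The groups overlapped in the other laccase members as well. The laccase-1-like gene (TRINITY_DN10389_c0_g1) had 37.8, 39.1 and 39.6 TPM in the controls and 39.4, 39.4 and 43.0 TPM after immersion, with a log2 fold change of -0.03 ± 0.15 (SE; edgeR adjusted p = 0.894). Its gene ontology terms are of iron transport and ferroxidase activity, and none names cuticle. For the laccase-4-like gene (TRINITY_DN4725_c0_g1) the levels were 30.0, 23.9 and 28.5 TPM in the controls and 28.0, 28.5 and 35.3 TPM after immersion (log2 fold change 0.23 ± 0.16 SE; edgeR adjusted p = 0.316). That row joins 56 transcripts and its ontology terms name the Ino80 chromatin complex, so whether it holds 1 gene was not settled. The Swiss-Prot matches of all 3 laccase members are laccases of fungi.

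Among the laccase rows below the top 10, a laccase-5-like gene (TRINITY_DN9893_c0_g1) had 2.76, 3.10 and 3.67 TPM in the controls and 2.01, 1.92 and 2.09 TPM after immersion. The groups did not overlap, and the log2 fold change was -0.63 ± 0.23 (SE; edgeR adjusted p = 0.118). In all, 9 laccase rows were found, 8 could be tested, and 5 of them had negative and 3 positive log2 fold changes, with a median of -0.18. Epidermis and cuticle markers gave 1888.5 to 2189 TPM summed over 20 rows in the controls and 1977 to 2072 TPM after immersion, within the control range. A single structural cuticle protein row with a mean of 1090 TPM, whose groups overlapped, was the largest part of that sum. Of their 13 tested rows 8 were negative and 5 positive, and 3 of the 20 rows were at 0 in some library, in both groups. Pro-resilin (TRINITY_DN855_c0_g1), a precursor of elastic cuticle named after its values were seen, had 124, 217 and 318 TPM in the controls and 112, 86.4 and 64.1 TPM after immersion. All its immersion libraries lay below all controls (log2 fold change -1.37 ± 0.37 SE, edgeR adjusted p = 0.0909, -0.50 within the batch). Endocuticle rows SgAbd-8-like (TRINITY_DN1508_c0_g1) and SgAbd-4-like (TRINITY_DN26953_c0_g1), also named after their values were seen, lay above every control. Their means were 401 and 3.54 TPM, and their log2 fold changes 0.22 and 0.93 (edgeR adjusted p = 0.341 and 0.136). Within the batch they had 0.22 and 1.15. The part of epidermal content in the laccase values was not tested.

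Phenoloxidase 2 (PPO2, TRINITY_DN3212_c2_g1), the blood enzyme of defensive melanin, was the only row of its kind among the 29. Its level was 30.5, 38.9 and 34.3 TPM in the controls and 33.1, 33.7 and 40.8 TPM after immersion. The groups overlapped in part, with control 1 the lowest library and immersion 3 the highest. The difference was 0.06 ± 0.15 (SE) on the log2 scale (edgeR adjusted p = 0.76). Haemocyte markers, 4 rows that include hemocytin and a hemocyte transglutaminase, summed to 949 to 1164 TPM in the controls and 1069 to 1159 TPM after immersion, with no row at 0. One transglutaminase row with a mean of 954 TPM made up most of that sum, and its groups overlapped. Of the 4 rows 2 were positive and 2 negative. Hemocytin (TRINITY_DN3702_c0_g1), a clotting protein of blood cells, lay below every control after immersion, with a log2 fold change of -1.38. A croquemort-like row (TRINITY_DN4461_c0_g3), of a family of scavenger receptors, lay above every control, with 0.42. The more abundant row of the same description (pes, TRINITY_DN666_c0_g1) went the other way, with -0.45 and overlapping groups. All these rows were named after their values were seen. The part of blood cell content in the phenoloxidase value was not tested.

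The yellow and royal jelly rows differed in direction. There were 12 of them, 9 of which could be tested. An unadjusted p under 0.05 was reached by 3 that were higher and 3 that were lower after immersion, and 3 did not reach it, against 14.2% higher and 20.6% lower among all genes. None (0) passed the adjusted threshold in edgeR, where the unadjusted count was 6, and DESeq2 called 3, in a fit that called 23.0% of all genes. One of the 3 higher rows, TRINITY_DN15765_c0_g1, was high in immersion 2 alone.

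Of the lower rows the most abundant was a major royal jelly protein 1 by description (TRINITY_DN2457_c0_g1), whose Swiss-Prot match and ontology terms are those of yellow itself, the fly protein needed for black pigment. It stood at 184, 253 and 414 TPM in controls 1, 2 and 3 and at 166, 137 and 158 TPM in immersion libraries 1, 2 and 3. Every immersion library lay below every control, with control 1 nearest to them and control 3 farthest. Its log2 fold change was -0.82 ± 0.28 (SE; edgeR adjusted p = 0.11). Within the batch that value was -0.29, and without control 3 it was -0.45. DESeq2 gave an adjusted p of 0.0322, in a fit that called 23.0% of the genes with an adjusted p.

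Yellow isoform X2 (TRINITY_DN22819_c0_g2) showed the same order of groups at a lower level, with 25.8, 26.8 and 40.7 TPM in the controls and 21.5, 14.9 and 19.6 TPM after immersion. Here too no immersion library reached a control. The log2 fold change was -0.75 ± 0.24 (SE; edgeR adjusted p = 0.103; DESeq2 adjusted p = 0.0276), with -0.51 within the batch and -0.51 without control 3. The yellow-like row ranked 12 (TRINITY_DN27007_c0_g1), whose Swiss-Prot match is honeybee MRJP1, had 14.9, 17.4 and 30.1 TPM in the controls and 12.6, 11.1 and 11.7 TPM after immersion. Its log2 fold change was -0.81 ± 0.29 (SE; edgeR adjusted p = 0.118) and -0.34 within the batch.

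In the opposite direction lay a yellow-like member (TRINITY_DN25386_c0_g1), with 38.7, 28.2 and 28.4 TPM in the controls and 40.5, 55.9 and 41.0 TPM after immersion. The groups did not overlap, but control 1 was close to immersion libraries 1 and 3. On the log2 scale it differed by 0.54 ± 0.23 (SE; edgeR adjusted p = 0.143) and 0.25 within the batch. A weaker yellow-like row (TRINITY_DN23209_c1_g1) had 5.41, 4.36 and 4.86 TPM in the controls and 9.23, 10.6 and 9.32 TPM after immersion. Here the log2 fold change was 0.76 ± 0.28 (SE; edgeR adjusted p = 0.12), and 0.77 within the batch. Unlike in the lower rows, its controls were close together by TPM. In CPM, on which the fold change rests, they had a mean of 2.58 and an SD of 0.72, from 41.5, 30 and 47.0 counts.

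The major royal jelly protein 1-like member (MRJP1, TRINITY_DN8765_c0_g1), which by its match resembles the main protein of honeybee royal jelly, had overlapping groups. Its level was 231, 263 and 215 TPM in the controls and 228, 225 and 256 TPM after immersion. Its difference between groups was -0.00 ± 0.15 on the log2 scale (SE; edgeR adjusted p = 0.98). Markers of the honeybee glands that make royal jelly proteins, 6 rows of maltase, glucosidase and amylase, summed to 4933 to 5279 TPM in the controls and 4114 to 4794 TPM after immersion, so the summed levels did not overlap, with no row at 0. A maltase A3-like row with a mean of 4089 TPM made up most of that sum, and its own groups overlapped. The rows that lay below every control after immersion were a maltase A1-like (TRINITY_DN1350_c0_g2) and an alpha-amylase-like row (TRINITY_DN25512_c0_g1). Their log2 fold changes were -0.97 and -1.12, and -0.45 and -0.20 within the batch. Neutral alpha-glucosidase (GANAB, TRINITY_DN2173_c1_g1) lay above every control by a small margin, with 0.14, and 0.08 within the batch. These rows were named after their values were seen. The list was taken by word pattern, and its neutral and lysosomal glucosidases are not specific to those glands. Fat body markers, 9 rows led by the yolk protein vitellogenin, ranged from 6068 to 29524 TPM over the controls and 6509 to 8125 TPM after immersion, with arylphorin at 0 in 5 libraries. The word pattern also took in the vitellogenin receptor (VgR, TRINITY_DN978_c0_g3), which is not a fat body marker. It had a mean of 623 TPM and a log2 fold change of -0.16, and is counted in these values. Of the 8 tested fat body rows 4 were lower and 0 higher at an unadjusted p under 0.05. By sign, 5 of the 8 rows were negative and 3 positive. The median log2 fold change was -0.65, or -0.29 within the batch. Vitellogenin (Vg, TRINITY_DN7540_c0_g1) and an apolipophorin (TRINITY_DN1986_c0_g2), a lipid carrier of the blood, stood at -2.02 ± 0.52 and -1.81 ± 0.43 (SE). The edgeR adjusted p was 0.0907 for each. Within the batch each was at -0.78, and without control 3 they were at -1.28 and -1.20. A vitellogenin-like row (TRINITY_DN2590_c0_g1) was at 0.03 and a hexamerin-like row (TRINITY_DN13152_c0_g3) at 0.45. In the hexamerin-like row all immersion libraries lay above all controls. All these fat body rows were named after their values were seen. By TPM the groups of vitellogenin TRINITY_DN7540_c0_g1 overlapped. Control 1, at 4961 TPM, was below every immersion library (5482 to 7243 TPM), and control 3 had 26794 TPM. The estimated counts, on which the fold change rests, gave another order. Control 1 had 244308 counts, above immersion libraries 1, 2 and 3 at 182678, 190519 and 139701. The highest summed level of the list was in control 3, the library in which TRINITY_DN2457_c0_g1, yellow isoform X2 and tyrosine 3-monooxygenase were highest too. That library was not particular to fat body rows. It was also the highest for laccase-2-like, pro-resilin and hemocytin, and the lowest for the synaptobrevin row (VAMP3). A part of either tissue in the yellow family values was not tested.

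**Figure D2:**
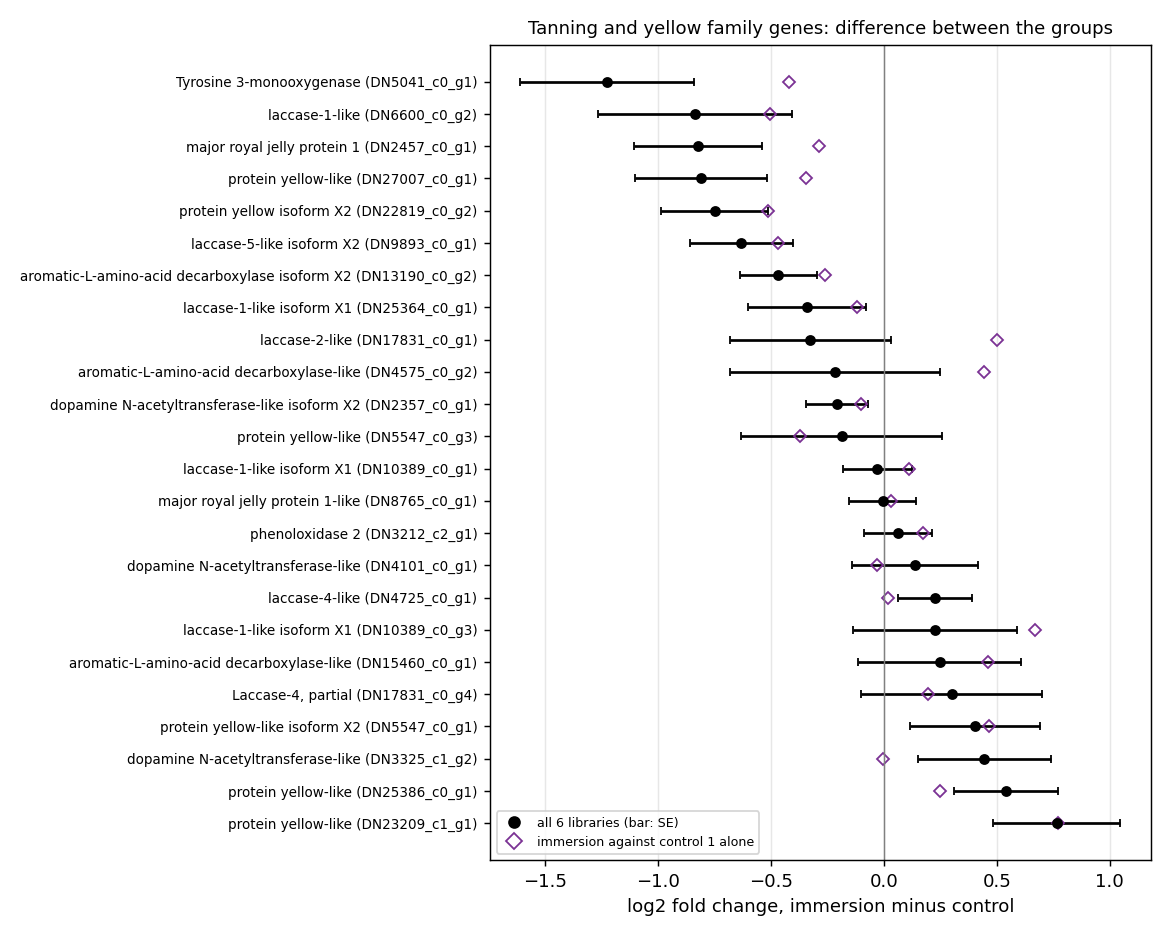
Log2 fold change (immersion minus control) of tyrosine 3-monooxygenase, the 9 tested members and 14 further tested rows, with filled points and SE bars for all 6 libraries and open diamonds for immersion against control 1 alone. Tyrosine 3-monooxygenase at -1.22 and yellow-like DN23209 at 0.76 mark the ends. TRINITY_DN15765_c0_g1, high in 1 library alone, is left out of the plot.

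One yellow gene was abundant in a single library. Yellow TRINITY_DN9668_c0_g1 had 157 TPM in immersion 2, from 2123 estimated counts, and 1.01 and 0.74 TPM in immersion 1 and 3. In the controls it had 0.50, 0.47 and 0.71 TPM, from 5.26, 5 and 7 counts. It is a member only through immersion 2. The row just outside the members, major royal jelly protein 1 (TRINITY_DN15765_c0_g1), behaved likewise, with 114 TPM in immersion 2 and 0.90 to 1.87 TPM in the other libraries. Its log2 fold change of 4.97 ± 1.84 (SE; edgeR adjusted p = 0.12) rests on that library.

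By a rule chosen after these values were seen, 13 genes of the table had at least 10 TPM in immersion 2 and at least 20 times their level in every other library, and 8 of them matched Hymenoptera. Besides the yellow and royal jelly rows these were 6 uncharacterized proteins, the highest at 2759 TPM (TRINITY_DN441_c0_g1), with 83.2 TPM in immersion 1 and 4.12 to 14.4 TPM in the others. The same rule gave between 3 and 59 genes in each of the other libraries, with 0 to 12 matching Hymenoptera, so every library had such genes. The rows TRINITY_DN16635_c0_g1 and TRINITY_DN1562_c0_g1 matched the same bee protein and may be pieces of 1 gene. Of the 13 genes, 1 matched a mitochondrial gene of the mite Sancassania, at 24.4 TPM in immersion 2, from only 12 counts, and listed at 0 elsewhere. The 27 rows that matched 5 mite genera held 1048 counts in immersion 2, 225 and 228 in immersion 1 and 3, 53 in control 1 and 0 in controls 2 and 3. Whether the mite reads and the yellow reads have to do with each other was not tested.

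**Figure D3:**
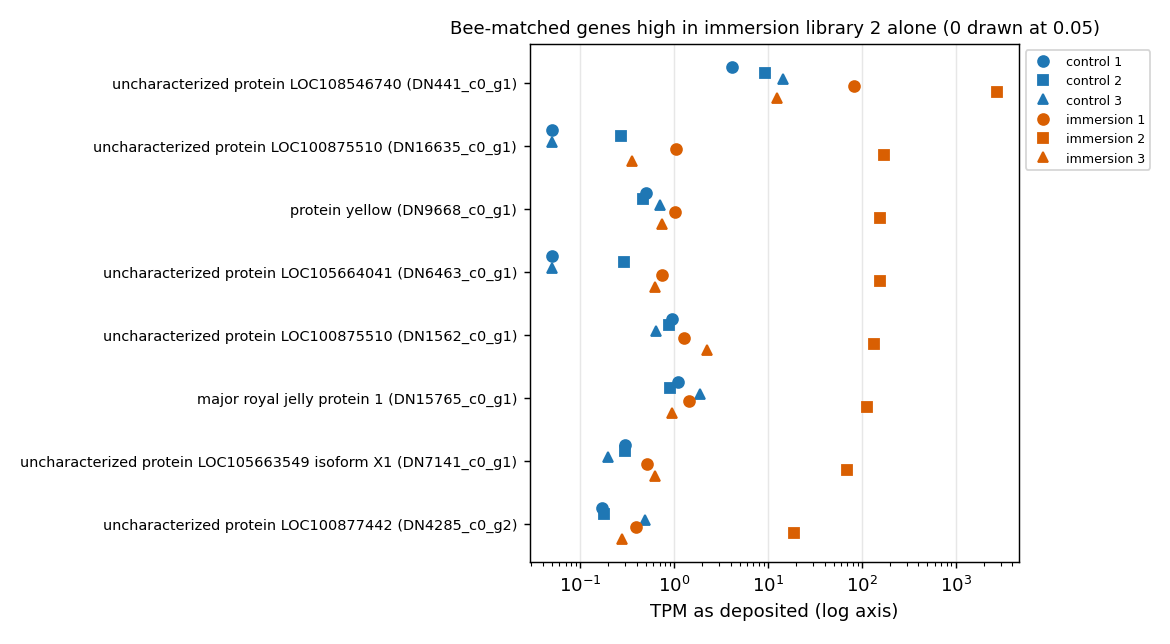
TPM on a log axis of the 8 Hymenoptera-matched genes with at least 10 TPM in immersion 2 and 20 times every other library, with values of 0 drawn at 0.05. Immersion 2 (orange squares) stands far to the right for each, from 19.1 to 2759 TPM.

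Genes that surround the pathway were taken as 5 lists of 34 Hymenoptera rows in all, 28 of them tested. None (0) passed the adjusted threshold in edgeR, and DESeq2 called 7, against 23.0% of all genes. At an unadjusted p under 0.05, 5 were higher and 4 lower, against 14.2% and 20.6% of all genes, and the median log2 fold change was 0.11 against 0.02. The DESeq2 and unadjusted counts take in TANC2 and a Nif3l1-like row, whose places in these lists are doubtful, as given below. The unadjusted count also takes in 2 hpd rows of the same assembly component.

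Tyrosine hydroxylase needs the pterin cofactor tetrahydrobiopterin, and tyrosine itself can be made from phenylalanine. The 2 sides of that supply differed in direction. Henna (Hn, TRINITY_DN19959_c0_g2), the hydroxylase that makes tyrosine from phenylalanine, had 59.5, 74.3 and 99.6 TPM in the controls and 46.2, 41.7 and 41.7 TPM after immersion, with no overlap (log2 fold change -0.75 ± 0.21 SE; edgeR adjusted p = 0.0924; -0.44 within the batch). Among the pterin enzymes, the synthase of the middle step (pts, TRINITY_DN5748_c2_g1) had 56.6, 33.8 and 14.7 TPM in the controls and 77.7, 82.8 and 71.3 TPM after immersion (log2 fold change 1.08 ± 0.40 SE; edgeR adjusted p = 0.119; 0.46 within the batch).

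Sepiapterin reductase (SPR, TRINITY_DN4301_c0_g1), the last step of cofactor synthesis, and dihydropteridine reductase (QDPR, TRINITY_DN1076_c0_g2), which recycles the cofactor, also had all immersion libraries above all controls. Their log2 fold changes were 0.79 ± 0.34 and 0.78 ± 0.41 (SE), with edgeR adjusted p of 0.149 and 0.193. In each of these pterin genes control 3 was the lowest library and control 1 the nearest to immersion, and within the batch the values of SPR and QDPR were 0.21 and 0.13. A GTP cyclohydrolase by description, the Nif3l1-like row (TRINITY_DN2196_c0_g1), had a log2 fold change of 0.71 ± 0.22 (SE; edgeR adjusted p = 0.0986), but Nif3-like proteins are not established enzymes of this route. GTP cyclohydrolase 1 itself (Pu, TRINITY_DN1843_c0_g1), which opens the route and is named here outside the rule for named genes, was at -0.09. Of the 8 tested rows 6 were positive, 2 of them and 1 negative row at an unadjusted p under 0.05, against 34.8% of all genes. Their median log2 fold change of 0.74 was 0.17 within the batch and 0.39 without control 3.

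Tyrosine can also be broken down. An early dioxygenase of that route, hpd (TRINITY_DN4271_c0_g2), had 40.6, 44.8 and 55.8 TPM in the controls and 71.7, 77.3 and 56.9 TPM after immersion. Its groups did not overlap, although immersion 3 was close to control 3. The log2 fold change was 0.63 ± 0.17 (SE; edgeR adjusted p = 0.0914) and 0.74 within the batch. A second row of the same description (TRINITY_DN4271_c0_g3), from the same assembly component and possibly a fragment or copy, had 0.74 ± 0.31 (SE; edgeR adjusted p = 0.141). Of the later enzymes, homogentisate 1,2-dioxygenase (hgo, TRINITY_DN2543_c0_g1) and fumarylacetoacetase (FAH, TRINITY_DN6360_c0_g1) had log2 fold changes of -0.33 ± 0.22 and -0.06 ± 0.13 (SE; edgeR adjusted p = 0.28 and 0.728). Both had the opposite sign within the batch, at 0.06 and 0.02. Of the 6 rows 2 were higher and 0 lower by the unadjusted p, against 14.2% higher and 20.6% lower among all genes.

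Beta-alanine for the yellow-brown branch can come from decarboxylases, and no row was described as ebony, the enzyme that joins it to dopamine. The table holds several rows named cysteine sulfinic acid decarboxylase, which in insects is related to the decarboxylase that makes beta-alanine. The most abundant (CSAD, TRINITY_DN20184_c0_g2) had 52.9, 101 and 127 TPM in the controls and 53.5, 72.7 and 65.2 TPM after immersion, with control 1 below all immersion libraries. The log2 fold change was -0.67 ± 0.37 (SE; edgeR adjusted p = 0.208), and 0.30 within the batch. Another decarboxylase row (TRINITY_DN20184_c0_g1) was at 2.33 and 0.83 TPM in immersion 1 and 2 and at 10.5 TPM in immersion 3, against 5.31 to 10.4 TPM in the controls. A partial row (Csad, TRINITY_DN8446_c1_g1) had a log2 fold change of 0.27 ± 0.29 (SE; edgeR adjusted p = 0.486). The only row of the list at an unadjusted p under 0.05 was TANC2 (TRINITY_DN3001_c0_g3), at -0.96 ± 0.30 (SE; edgeR adjusted p = 0.0998), a synaptic scaffold protein that the search term for the enzyme tan matched by its spelling.

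The rows found for peptide hormones of emergence and tanning were low. No Hymenoptera-matched row was described as eclosion hormone, ecdysis-triggering hormone or cardioactive peptide. Bursicon, the peptide that triggers tanning after emergence, had a row of 238 bases with 1 to 3 counts per library. It had at most 5.42 TPM and could not be tested, and corazonin (Crz, TRINITY_DN23751_c0_g2) had 4.23 to 11.8 TPM. A leucine-rich repeat receptor (TRINITY_DN25492_c0_g1), of the receptor class that holds the bursicon receptor of flies, had 42.1, 79.6 and 92.2 TPM in the controls and 32.2, 32.9 and 41.8 TPM after immersion. No immersion library exceeded a control, though immersion 3 all but equalled control 1. It differed by -0.94 ± 0.28 on the log2 scale (SE; edgeR adjusted p = 0.0942) and -0.26 within the batch. Its row has no Swiss-Prot symbol, so which receptor of the class it is was not settled.

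Laccase and phenoloxidase need copper. The pump that loads copper into secreted enzymes, ATP7A (TRINITY_DN5782_c0_g1), had 19.8, 28.0 and 36.4 TPM in the controls and 17.4, 17.5 and 18.3 TPM after immersion (log2 fold change -0.60 ± 0.18 SE; edgeR adjusted p = 0.0979; -0.27 within the batch). ATOX1 (TRINITY_DN3198_c0_g1), the chaperone that hands copper to that pump, had 23.2, 22.3 and 9.46 TPM in the controls and 30.5, 32.4 and 31.2 TPM after immersion (log2 fold change 0.77 ± 0.33 SE; edgeR adjusted p = 0.141; 0.44 within the batch). The groups did not overlap in either, in opposite directions. The copper importer SLC31A1 (TRINITY_DN2296_c0_g1) and the mitochondrial copper chaperone COX17 (TRINITY_DN10800_c1_g1) had log2 fold changes of 0.33 ± 0.17 and 0.30 ± 0.36 (SE; edgeR adjusted p = 0.185 and 0.535).

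**Figure D4:**
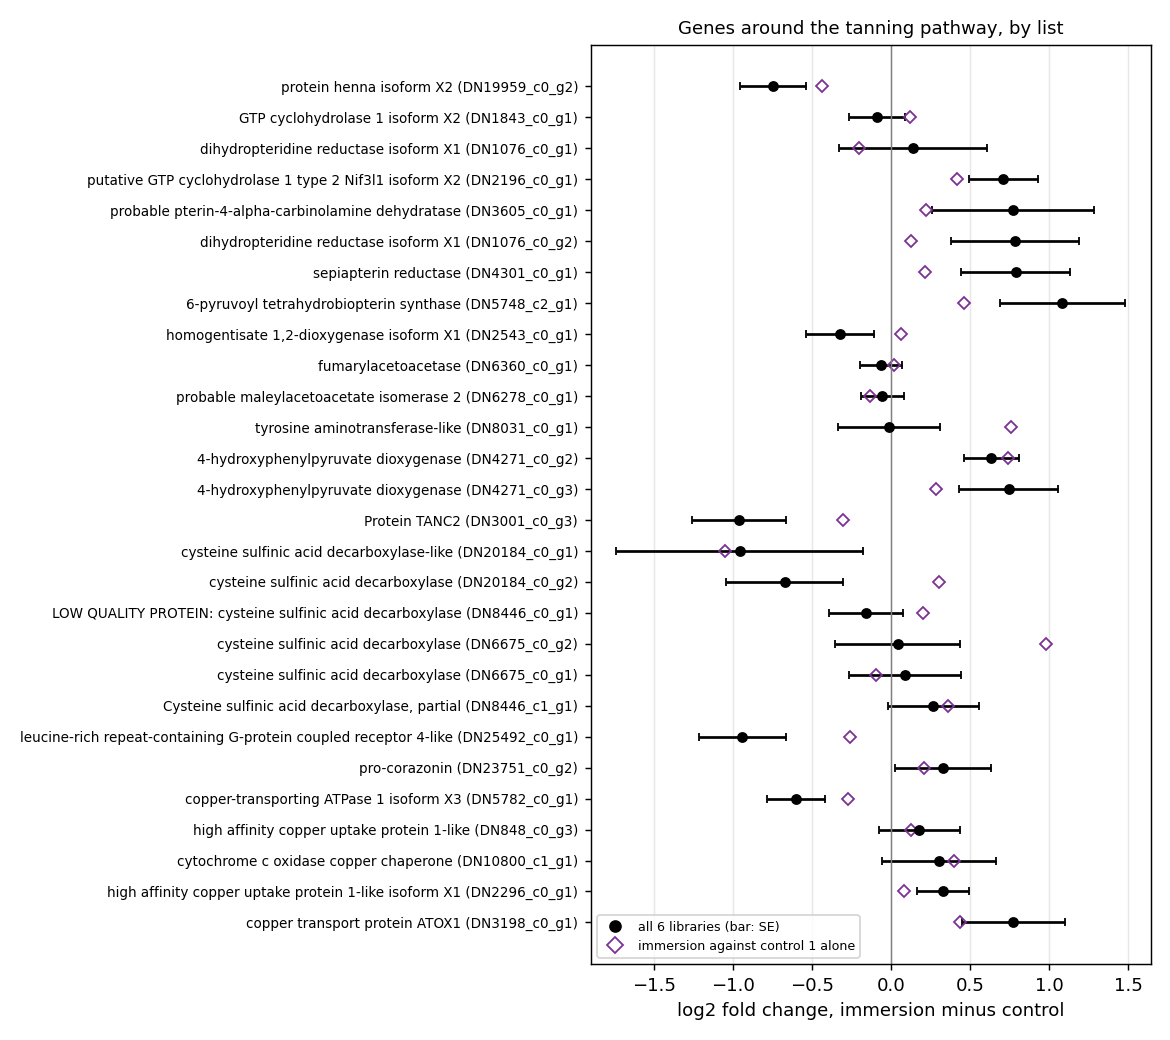
Log2 fold change (immersion minus control) of the 28 tested genes around the pathway, listed from top to bottom as tyrosine and cofactor supply, tyrosine breakdown, the beta-alanine branch, hormones and copper supply, with SE bars. Filled points use all 6 libraries and open diamonds immersion against control 1 alone, and most diamonds of the extreme genes lie nearer to 0, as for pts at 1.08 and 0.46.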

How the data were processed

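Genes are rows of a transcript assembly whose identifiers follow the Trinity pattern. The authors deposited estimated counts and TPM per gene. In the submitters' processing notes the tools listed are cutadapt 1.9, Salmon and edgeR, with no settings. How the assembly and its annotation were made is not given in the sources used here. Reads of related genes may be split between rows.

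The 11315 rows with a Hymenoptera genus in their description entered the fit. After rounding of the estimated counts to integers they were fitted with edgeR 4.0.16 (R 4.3.3), using TMM scaling, filterByExpr, which kept 9250 genes, and the quasi-likelihood test with a term for treatment alone. All p-values are two-sided and were adjusted by Benjamini-Hochberg over all genes kept. The procedure was tested on simulated data. Alternatives used DESeq2 1.42.0 and limma 3.58.1. The members and lists were chosen with earlier results of these data known. The genes named are the 10 members, ranks 11 and 12, up to 4 other matching rows and up to 4 genes of each pathway list with the smallest p, and the most abundant gene of each list. Tyrosine 3-monooxygenase and a few genes marked in the text were added after their values were seen. Lists are word patterns on the descriptions.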

Additional observations from a re-analysis of the deposited data

How the results depend on the processing

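With all 6 libraries edgeR called 0 members, 0 of the 28 tested pathway genes and 0 of all 9250. DESeq2 called 2, 7 and 2042 of them, limma-voom with library weights 5, 15 and 6369, and an unadjusted p under 0.05 reached 3, 9 and 3222. In fits that leave out 1 library, counts ranged from 0 to 3 members, 0 to 13 pathway genes and 0 to 4912 of all genes. The highest came without control 1, where TRINITY_DN2457_c0_g1, TRINITY_DN22819_c0_g2 and TRINITY_DN25386_c0_g1 passed; the libraries left then differ in worm and mammal reads exactly as in treatment. Without control 3 the counts were 0, 1 and 362. With length trends removed 26 of all genes were called, and 1 in the within-batch fit, with 0 members in both. The other scalings, filters, TPM pseudocounts, the whole table, summed descriptions and edgeR without its legacy option called 0 in each. Same-numbered libraries did not pair (correlations of their deviations -0.154, 0.141 and 0.164), and the fit with the replicate number as a block called 0 members, 0 pathway genes and 0 of all genes.

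Over 21 settings, TRINITY_DN2457_c0_g1 (-1.025 to -0.289), TRINITY_DN22819_c0_g2 (-0.934 to -0.489), TRINITY_DN25386_c0_g1 (0.146 to 0.715) and TRINITY_DN4725_c0_g1 (0.017 to 0.683) kept the sign of their log2 fold change. The other tested members changed sign at least once. The cause was not tested. The 0.146 of TRINITY_DN25386_c0_g1 came from summed descriptions, which pool it with other yellow-like rows of the same description. Its lowest value as a single row was 0.178, with length trends removed. Laccase-2-like TRINITY_DN17831_c0_g1 turned to 0.499 within the batch. With length trends removed, TRINITY_DN2357_c0_g1 turned to 0.029, TRINITY_DN10389_c0_g1 to 0.469 and TRINITY_DN3212_c2_g1 to -0.099, and the last to -0.041 with library weights. TRINITY_DN10389_c0_g1 also turned to 0.062 and 0.063 (TPM pseudocounts 1 and 0.1), 0.084 (library weights), 0.077 (upper quartile) and 0.110 (within the batch), and ranged from -0.089 to 0.103 with 1 library left out. TRINITY_DN8765_c0_g1 moved farthest with length trends removed, to -0.423, and turned to 0.003 for both TPM pseudocounts, 0.013 with no filter, 0.092 by upper quartile, 0.015 in the whole table and 0.029 within the batch, and ranged from -0.054 to 0.063 with 1 library left out.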
